A study of Homo sapiens with 16 samples.

Results

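Messenger RNA of SUM159PT cells was compared between 4 libraries of cells transfected with an siRNA against YES1 (siYES1) and 4 libraries of cells transfected with a control siRNA against firefly luciferase (siNS). The members are these 8 libraries of the 16 in the series, chosen by the line and siRNA in the labels, with all 58735 gene IDs of their count table, of which 14469 had enough counts to be tested. SUM159PT is an established human line of triple-negative breast cancer cells, a form without estrogen receptor, progesterone receptor or amplification of HER2, and the labels give its genotype as WT. Cells of both groups received the transfection reagent Lipofectamine, medium added at 6 h and fresh medium at 24 h, and the sample titles give 48 h as the time. The other 8 libraries are MDA-MB-231 cells, another triple-negative line, treated in the same way. The title of the series names centrosomes, the stability of chromosomes and the response to therapy as the processes under study. The series text calls the replicates technical, so every p-value here measures the spread between such samples only. The labels name 1 siRNA target per group and give no siRNA sequence, so effects of YES1 loss and of the siRNA itself on other transcripts cannot be told apart. The column names of the table carry a prefix that does not abbreviate SUM159PT, and the line's identity was not tested.

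YES1 belongs to the Src family of tyrosine kinases and is held at the inner face of the cell membrane by lipid anchors. Kinases of this family pass signals from integrins and growth factor receptors to adaptor proteins and the ERK cascade, and CSK keeps them inactive at rest with the help of the membrane adaptor PAG1. The co-activator YAP, the Yes-associated protein, was found through its binding to YES1. In breast cancer cells Src family kinases are known for their roles in adhesion, spreading and invasion.

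The depth was 15680459 to 23451253 counts per library. siNS replicate 1 lay apart from the other siNS libraries: on the second principal component, with 14% of the variance, it stood at 47.6 and they stood between -32.9 and -11.1. Of 10614 genes at 5 CPM or more (counts scaled for library size), 5.89% had siNS replicate 1 far above or below the rest of its group, against 0.311% to 1.77% for each other library. Results that rest on this library are given with and without it. Of the markers fixed for this line, the receptor genes ESR1 and PGR stood at 0.504 and 0.0296 CPM with siNS, and ERBB2, which encodes HER2, at 66.3 CPM. The epithelial genes CDH1 and EPCAM stood at 0.345 and 0.632 CPM and CLDN3 at 0. Other luminal and basal markers stood higher with siNS. KRT8 and KRT18 were at 321 and 127 CPM, and GATA3, TP63 and FOXA1 at 16.6, 16.45 and 7.43 CPM. The mesenchymal markers VIM, FN1 and CDH2 stood at 1312, 2774 and 215 CPM. The level of YES1 itself separated the siRNA groups as labelled.

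YES1 stood at 99.7, 149.6, 151 and 136 CPM in the 4 siNS libraries and at 15.8, 15.7, 19.4 and 17.9 CPM in the 4 siYES1 libraries. The groups did not overlap, and siNS replicate 1 was the lowest of its group. In GRCh38 this coding gene, ENSG00000176105, spans bases 721588 to 812546 of chromosome 18, minus strand. Its log2 fold change was -2.96 ± 0.14 (edgeR adjusted p = 3.88e-08), which left 12.9% of the control level, and it was -3.08 without siNS replicate 1. Errors of log2 fold changes are throughout standard errors worked back from the F statistic of the edgeR test, and n is 4 libraries per group.

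Over all genes 5321 were called at an edgeR adjusted p under 0.05, 36.8% of those tested. Of these 2566 rose (17.7%) and 2755 fell (19.0%), and the median log2 fold change of all tested genes was -0.03. Large changes were mostly falls. At 2-fold or more 1337 genes were called (9.24%), of which 1122 fell (7.75%) and 215 rose (1.49%). These numbers rest on TMM scaling, which sets the balance of the genes near 0. With total counts as the scaling the median of all genes shifted by -0.17 on the log2 scale, 1394 genes rose (9.63%), 4173 fell (28.8%), and rises made up 25.04% of the calls against 48.22%. Changes of gene groups below are therefore read against the median of all genes. Counts of risen and fallen list members stand against the shares of 17.7% and 19.0% over all tested genes. Counts near these shares are described and not read as a response of the list.

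The direction of change went with the level of the gene. Levels between genes are given here as CPM per kb of exon, the mean over the 8 libraries. Among 1089 genes under 0.3 CPM per kb, 1.38% rose and 20.9% fell, and their median log2 fold change was -0.63. Of the 4141 genes from 3 to 10 CPM per kb, 18.7% rose and 19.9% fell, and the median was 0.01. Among 377 genes at 100 CPM per kb or more, 49.6% rose and 5.57% fell, and the median was 0.21. Without siNS replicate 1 the medians of the lowest and highest bands were -0.55 and 0.18, and with total counts as the scaling they were -0.80 and 0.04. In MDA-MB-231 they were -0.24 and 0.16.

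**Figure D1:**
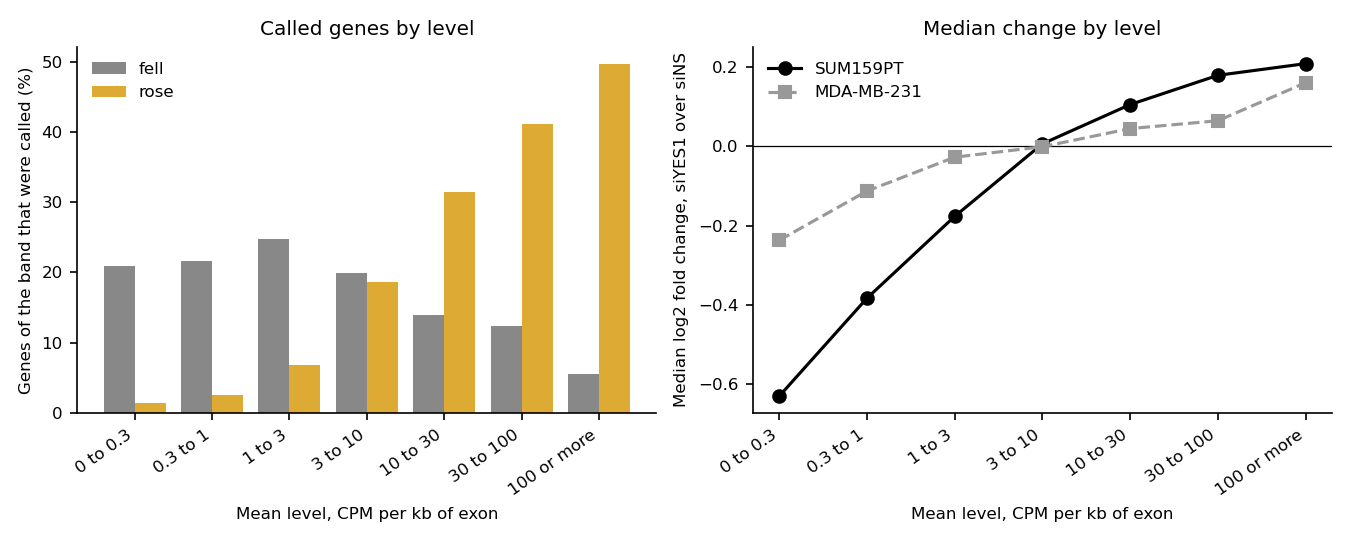
Left, the share of tested genes that fell (grey) and rose (yellow) in SUM159PT in each band of mean level, in CPM per kb of exon. Right, the median log2 fold change (siYES1 over siNS) of each band in SUM159PT (black circles) and MDA-MB-231 (grey squares). In SUM159PT the share that rose goes from 1.38% in the lowest band to 49.6% in the highest.

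Fewer genes were detected after YES1 knockdown. At a common depth of 15680459 counts, 20227, 19925, 19865 and 20290 genes would have had a count in the siNS libraries and 18560, 19120, 18222 and 19075 in the siYES1 libraries. The groups did not overlap, and siNS replicate 1 lay inside its group. The difference of -1332.5 genes had p = 0.0286 in a two-sided exact permutation test over the 8 libraries, the smallest p that 4 against 4 can give. In MDA-MB-231 the difference was -60.8 genes (exact permutation p = 0.6), and the difference between the lines had an exact permutation p of 0.0204. The 10 genes with the most counts took 4.9% to 5.68% of all counts with siNS and 6.55% to 6.76% with siYES1. Mitochondrially encoded genes took 2.14% to 2.5% with siNS and 1.79% to 2.1% with siYES1. The part of this change of composition in the falls of single low genes was not tested.

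**Figure D2:**
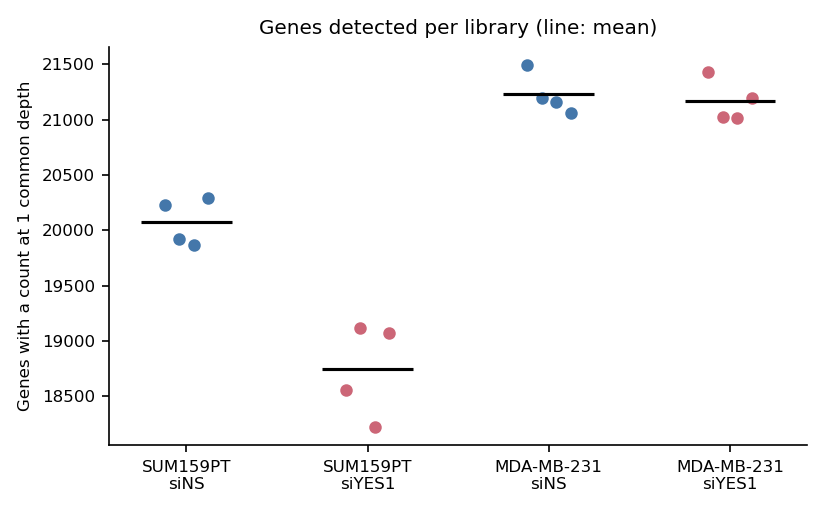
Number of genes with at least 1 count in each library, computed at a common depth of 15680459 counts. Points are the 4 libraries of each group and lines their mean, and the axis does not start at 0. The siYES1 libraries of SUM159PT lie between 18222 and 19120, below all siNS libraries of that line, and the groups of MDA-MB-231 overlap.

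Among coding genes at 5 CPM or more the deepest falls reached 1.65% of the control level. STMN4, a stathmin of neurons that binds tubulin, stood at 24.8, 46.4, 42.9 and 36.6 CPM with siNS and at 0.695, 0.815, 0.476 and 0.498 CPM with siYES1. All siYES1 libraries lay far below all siNS libraries (log2 fold change -5.92 ± 0.25, edgeR adjusted p = 2.73e-08). MYBPC1, a myosin-binding protein of slow skeletal muscle, stood at 60.1, 42, 54.6 and 45.7 CPM with siNS and at 1.18, 1.96, 1.91 and 1.81 CPM with siYES1. Here siNS replicate 1 was the highest library of its group, and the groups again did not overlap (log2 fold change -4.88 ± 0.18, edgeR adjusted p = 6.65e-09). SCARA5, a ferritin receptor, fell by 4.81 on the log2 scale, LMTK3, a membrane kinase, by 4.33, and C5AR2, a receptor of complement C5a, by 3.94. TMEM130 fell by 3.85, CEND1, a neuronal regulator of cell cycle exit, by 3.79, and HR, a corepressor of hair follicle cells, by 3.46.

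AQP3, a channel for water and glycerol, fell from 13.6, 17.1, 16.4 and 15.6 CPM to 0.802, 1.36, 1.69 and 0.725 CPM, without overlap (log2 fold change -3.78 ± 0.25, edgeR adjusted p = 3.52e-07). KDR, the main VEGF receptor, fell from 12.7, 18.2, 21.8 and 21.4 CPM to 1.82, 1.52, 1.85 and 1.41 CPM, also without overlap and with siNS replicate 1 lowest among the controls (log2 fold change -3.49 ± 0.22, edgeR adjusted p = 2.07e-07). ASB9, a substrate adaptor of ubiquitin ligases, fell by 3.30 on that scale. SYT12, a synaptotagmin, fell by 3.09, CITED4, a transcription co-activator, fell by 3.04 and MGP, an inhibitor of calcification, fell by 2.94. With YES1 these were the 15 largest falls under the rule for named genes. For falls and rises alike, the rule took only genes whose groups did not overlap and that were also called without siNS replicate 1. Both traits were thus fixed by the rule for the genes it named. Groups did not overlap in 36.8% of all tested genes.

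KDR is also a marker of endothelial cells, and some markers of other cell types fell as well. PTPRC (CD45), a marker of blood cells, stood at 0.724 CPM with siNS and had 0 counts in all siYES1 libraries, where 3 counts over the group would be 0.0384 CPM. PECAM1 stood at 1.94 and 0.322 CPM, and both were called as falls (edgeR adjusted p = 0.000666 and 0.00137). PTPRC could pass the filter for testing only through its siNS level, so its test could call only a fall. PECAM1 may have passed in the same way. Of the 5 immune markers 1 was tested and fell, and CD3E was at 0 in all 8 libraries. The summed level of the immune markers was 0.688 to 0.917 CPM with siNS and 0 to 0.0544 CPM with siYES1. Of the 4 endothelial markers 2 were tested and fell, and their sum was 15.9 to 24.1 CPM against 1.72 to 2.33 CPM. Of the 7 fibroblast markers 5 were tested and 3 fell (COL1A1, PDGFRA and PDGFRB). DCN stood higher with siYES1, at 20.96 CPM against 15.56 CPM, and COL3A1 lower, at 1.79 CPM against 3.05 CPM. Neither of these changes passed the threshold. LUM was at 0 in all libraries and COL1A2 was at 0 with siNS. The fibroblast sum was 1708 to 1974 CPM with siNS against 638.7 to 742.7 CPM with siYES1. Each sum with siNS lay mostly in 1 gene. The siNS means of these genes were 1625 CPM for COL1A1, 18.5 CPM for KDR and 0.724 CPM for PTPRC. The part of other cells in these results was not tested. In bulk samples fewer cells of a kind and less RNA per cell cannot be told apart.

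The largest rise was in KLF2, a Kruppel-like transcription factor known from quiescent cells. Its level was 0.974, 3.02, 3.44 and 3.7 CPM with siNS and 23.5, 23.3, 23.1 and 23.3 CPM with siYES1. The siYES1 libraries lay within a narrow band above all controls, and siNS replicate 1 was the lowest control, so that the log2 fold change of 3.05 ± 0.27 (edgeR adjusted p = 3.53e-06) was 2.77 without it. GPAT3, an enzyme of the first step of triglyceride synthesis, stood at 14.8, 22.1, 17.1 and 21.2 CPM with siNS and at 84, 74.4, 82.2 and 83.6 CPM with siYES1. These groups did not overlap either (log2 fold change 2.11 ± 0.12, edgeR adjusted p = 1.48e-07). RND3, a small GTPase that opposes RHOA signalling, rose from 73.8, 103, 83 and 68.5 CPM to 273, 252, 232 and 244 CPM, without overlap (log2 fold change 1.61 ± 0.12, edgeR adjusted p = 5.84e-07).

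The other leading rises had log2 fold changes of 1.53 to 1.86. PSG4, a pregnancy-specific glycoprotein of a family of near-identical genes, rose by 1.86, CLDN12, a claudin, by 1.76, and E2F7, an E2F repressor of cell cycle genes, by 1.73. KLF7 rose by 1.63, WDFY1, an endosomal adaptor, by 1.61, SNAPC1, a subunit of the complex that transcribes small nuclear RNA genes, by 1.59, and TTPAL by 1.73. HINT3 and PLSCR4 rose by 1.59 and 1.58, the latter by 1.27 without siNS replicate 1. FAM72B and FAM72C rose by 1.54 and 1.56, but these are near-identical copies of 1 gene family and the authors' counting could split their reads. The 15th was PLK1, described with the cell cycle genes.

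**Figure D3:**
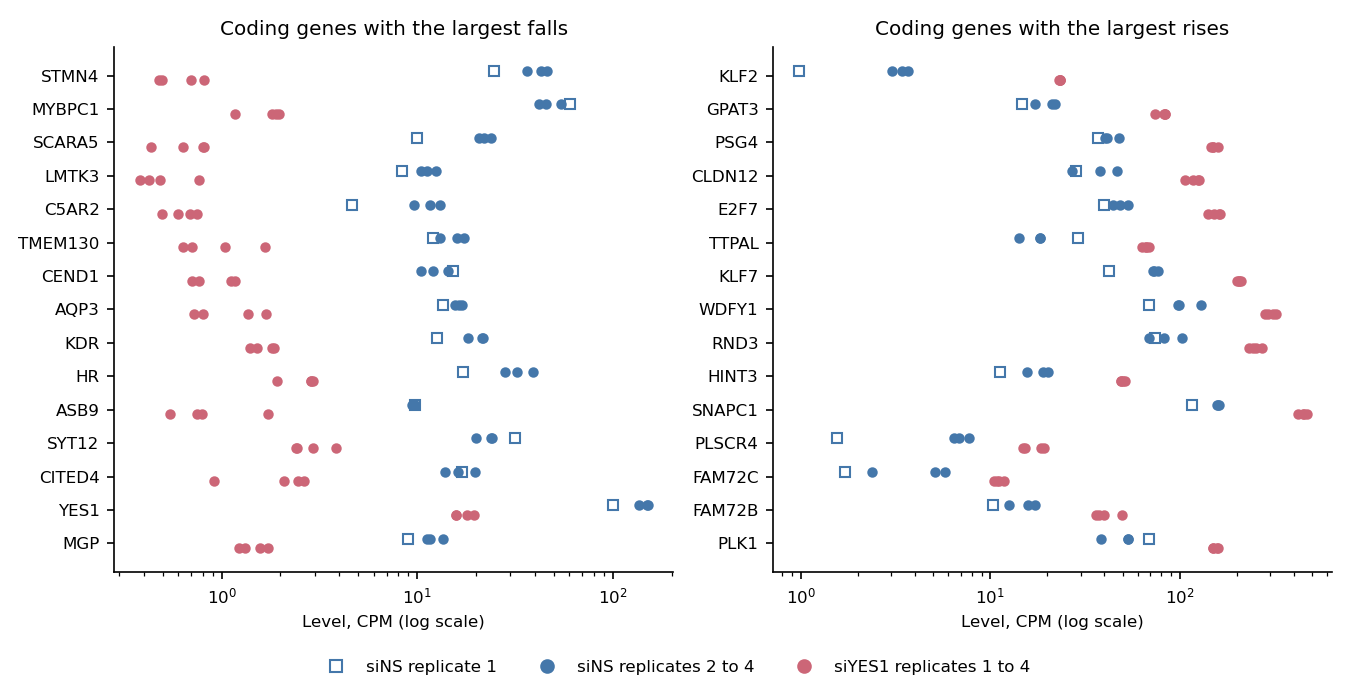
Level in CPM, on a log scale, of the 15 coding genes with the largest falls (left) and the 15 with the largest rises (right) under the rule for named genes. Open squares are siNS replicate 1, blue circles siNS replicates 2 to 4 and red circles the 4 siYES1 libraries. The rule took only genes whose groups do not overlap, so blue and red symbols lie apart in every row. The square lies outside the other controls, on either side of them, except for CITED4, CLDN12 and RND3.

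Collagens, the main fibres of the extracellular matrix, fell far more often than they rose. Of 33 collagen genes 24 were tested, 15 fell and 1 rose, and the median log2 fold change was -0.47 against -0.03 for all genes, and without siNS replicate 1 edgeR called 17 falls and 0 rises, with 2 rises at an unadjusted p under 0.05. COL1A1, the main chain of fibrillar collagen, stood at 1561, 1544, 1613 and 1782 CPM with siNS and at 567, 623, 617 and 668 CPM with siYES1. The groups lay clearly apart and siNS replicate 1 within its group (log2 fold change -1.39 ± 0.07, edgeR adjusted p = 6.1e-08). COL1A2, whose chain pairs with that of COL1A1 in type I collagen, was at 0 in the siNS libraries. COL6A1, of the beaded filaments of type VI collagen, fell from 60.1, 86.8, 93.5 and 91.3 CPM to 23.2, 28.6, 25 and 31.7 CPM, without overlap (log2 fold change -1.61 ± 0.14, edgeR adjusted p = 3.66e-06). Its partner COL6A2 fell by 1.41 and COL7A1, the anchoring fibril collagen of skin, by 1.35.

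Enzymes that mature collagen moved both ways, with 8 rises and 7 falls of 26 tested and a median of 0.00 (3 rises and 9 falls with total counts as the scaling). LOXL1 and LOXL3, which crosslink matrix fibres, fell by 1.66 and 1.91, PCOLCE, an enhancer of propeptide removal, fell by 1.30, and PLOD2, a lysyl hydroxylase, rose by 0.94. Of 38 tested matrix glycoproteins and proteoglycans 14 fell and 9 rose, or 20 and 10 when siNS replicate 1 was left out. The nidogens NID1 and NID2, which link laminin to collagen IV, fell by 1.72 and 1.99, and fibrillin FBN1 by 0.92. LAMC1, the laminin gamma chain, went the other way, from 127, 164, 166 and 193 CPM to 453, 446, 438 and 481 CPM. Its groups did not overlap (log2 fold change 1.49 ± 0.11, edgeR adjusted p = 5.59e-07).

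Of 27 tested matrix proteases and inhibitors 12 fell and 5 rose, and the list median was -0.32. PLAU, the urokinase that activates plasminogen, fell by 1.25, and MMP11 by 2.19. ADAM9, a membrane-bound metalloprotease, rose by 0.99.

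Integrins, the receptors through which cells hold the matrix, split by subunit. Of 14 tested subunits 8 fell and 4 rose, and 2 were not called. The collagen receptors ITGA10 and ITGA11 fell by 2.60 and 2.62, and ITGA7, a laminin receptor of muscle, by 2.21. ITGB4, the laminin receptor chain of hemidesmosomes, fell from 87.4, 134, 122 and 153 CPM to 21.7, 28.5, 23.2 and 24.7 CPM. Its partner ITGA6 rose, from 138, 139, 139 and 146 CPM to 356, 344, 376 and 386 CPM. The groups of neither gene overlapped, with log2 fold changes of -2.34 ± 0.15 and 1.38 ± 0.07 (edgeR adjusted p = 3.35e-07 and 4.13e-08). ITGB1, the common beta chain, rose by 1.11 and ITGA5, the fibronectin receptor chain, by 0.77.

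Of 35 tested focal adhesion proteins 9 rose and 12 fell (25.7% and 34.3%, against 17.7% and 19.0% of all genes). TLN1 and FERMT2, which link integrins to actin and switch them on, rose by 0.80 and 0.82, while the Src-bound scaffold NEDD9 fell by 1.79 and the paxillin relative TGFB1I1 by 0.84. Among 23 tested substrates and regulators of Src kinases 10 rose and 5 fell, but 5 rose and 7 fell with total counts as the scaling. PAG1, the adaptor that brings CSK to the membrane, rose by 1.33, the ubiquitin ligase CBLB by 1.07, and the invadopodia scaffold SH3PXD2A fell by 1.30. PAG1 and CBLB rose by 1.14 and 0.90 without siNS replicate 1.

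Genes of desmosomes and catenins, which hold cells to each other, had 4 rises and 3 falls of 9 tested and a median of 0.30 (2 rises and 4 falls with total counts as the scaling). JUP, plakoglobin, which joins desmosomal and classical cadherins to the cytoskeleton, fell from 123, 174, 163 and 157 CPM to 31.4, 31.5, 29 and 26.7 CPM, without overlap (log2 fold change -2.38 ± 0.11, edgeR adjusted p = 3.88e-08). PKP3, a desmosomal plaque protein, fell by 1.08, and the desmosomal cadherin DSG2 rose by 0.87. Among 21 tested factors and filaments of the epithelial-mesenchymal transition 3 rose and 5 fell (14.3% and 23.8%, against 17.7% and 19.0% of all genes). VIM rose by 0.80 (0.67 without siNS replicate 1), and the keratins KRT8 and KRT18 of simple epithelia fell by 0.86 and 1.04.

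Guidance and neural adhesion genes fell where they were called with all 8 libraries. Of 27 tested semaphorins, plexins and neuropilins 14 fell and 0 rose, and the list median was -0.52, with 0 rises also at an unadjusted edgeR p under 0.05 and with DESeq2, and 16 falls and 1 rise without siNS replicate 1. SEMA3A, a secreted repellent of growth cones, stood at 4.12, 3.49, 3.16 and 3 CPM with siNS and at 0.214, 0.652, 0.423 and 1.18 CPM with siYES1. The groups did not overlap at these low levels (log2 fold change -2.45 ± 0.43, edgeR adjusted p = 0.000743). SEMA6D fell by 1.92, SEMA4D by 1.24, SEMA3F by 1.19 and the receptor PLXNC1 by 1.07. Of 66 protocadherin genes 17 were tested, and 12 of them fell and 0 rose, and the list median was -1.42, the lowest among the 65 lists, and 0 rose by DESeq2 or at an unadjusted edgeR p under 0.05. PCDHB14, PCDHB2, PCDHB5 and PCDHGB7 fell by 1.78, 1.51, 1.47 and 1.46. These genes lie in clusters of similar copies on chromosome 5, their median level was 0.504 CPM per kb, and reads shared between copies could be split by the counting.

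Of 29 tested potassium and sodium channels 11 fell and 2 rose, and KCNG2 fell by 2.14. Among 29 tested ABC transporters 13 fell and 4 rose. ABCB1, a drug efflux pump, fell by 0.96 and the peroxisomal ABCD2 by 1.71, while the efflux pump ABCG2 rose by 1.06 and ABCC9, a channel regulator, by 1.11. Of 16 tested HOX genes 5 fell and 0 rose by edgeR or DESeq2, with 0 rises also at an unadjusted edgeR p under 0.05, and HOXC6 fell by 0.56. In 382 tested zinc finger genes named ZNF 27 rose (7.07%) and 62 fell (16.2%), and the list median was -0.18. ZNF362 and ZNF467 fell by 2.42 and 2.25. The median levels of these lists were 1.37 to 2.76 CPM per kb, within the range where falls outnumbered rises over all genes. The lists counted below with at least 2 rises per fall had median levels of 8.16 to 39.2 CPM per kb. Over all genes 18.7% rose from 3 to 10 CPM per kb, 31.4% from 10 to 30 and 41.1% from 30 to 100.

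**Figure D4:**
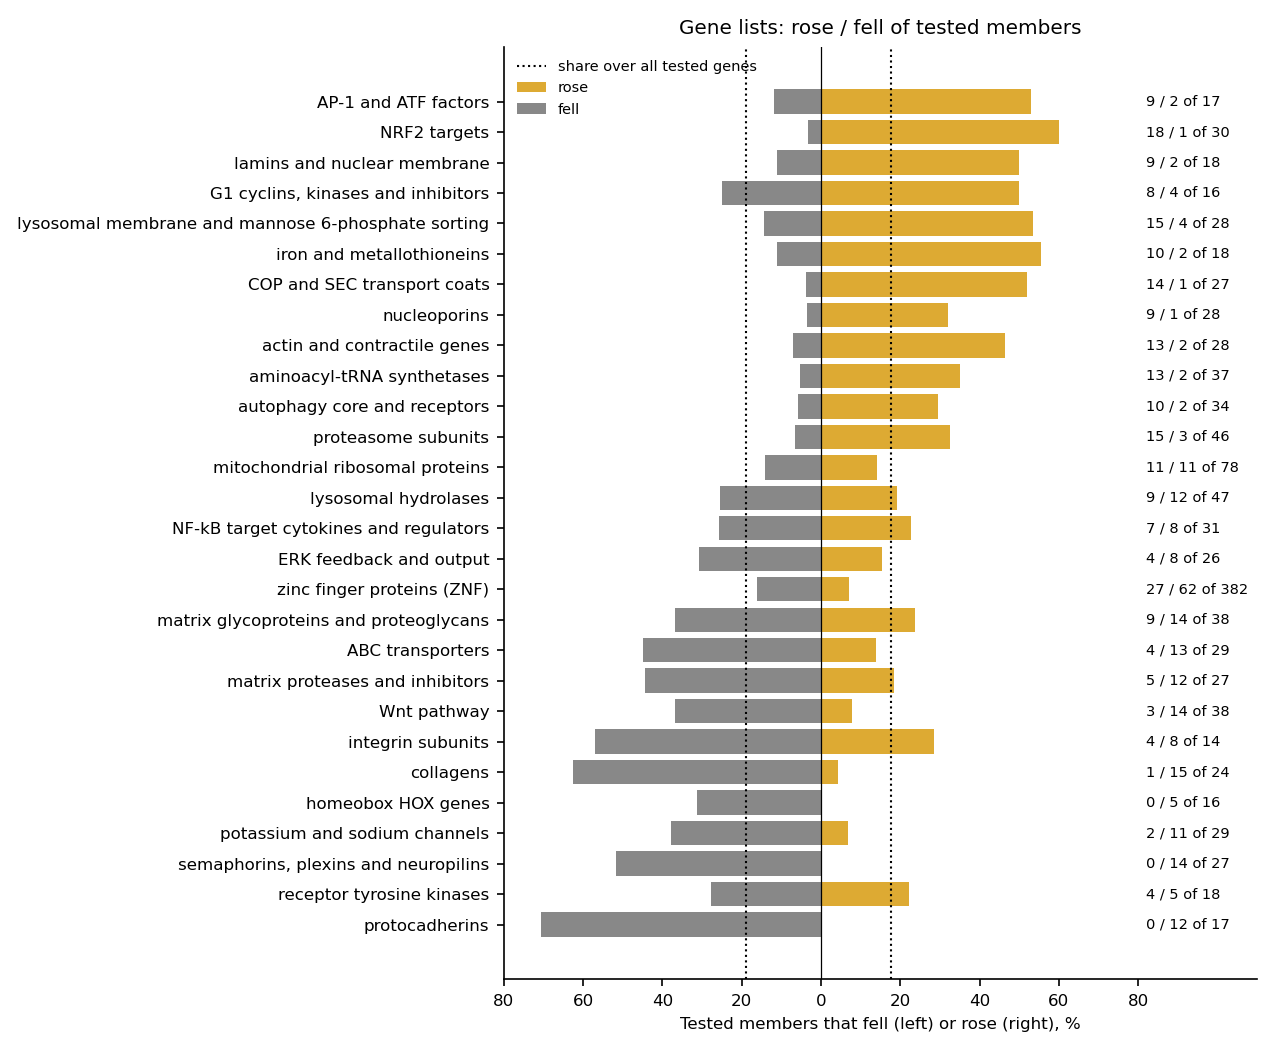
Share of the tested members of 28 gene lists that rose (yellow, to the right) or fell (grey, to the left), ordered by the median log2 fold change, with the counts at the right as risen, fallen and tested. Dotted lines mark the shares over all tested genes, 17.7% and 19.0%. Protocadherins, semaphorins and collagens lie among the lowest 6 rows, and lists of AP-1 factors, NRF2 targets and nuclear envelope genes at the top.

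Growth factor genes changed in both directions, and the receptors of PDGF and VEGF fell. Of 28 other growth factor ligands tested, beside the EGF family, 10 rose and 10 fell. PGF, a ligand of VEGF receptors, fell by 2.15, PDGFB by 2.10, ANGPT1 by 1.92 and BMP4 by 1.35. KITLG, the ligand of KIT, rose by 0.94, PDGFA by 0.83 and FGF2, a fibroblast growth factor, by 0.73. PDGFRB, a PDGF receptor, fell from 42.3, 63.8, 71 and 70.6 CPM to 19.5, 21.1, 23.3 and 23 CPM, without overlap and with siNS replicate 1 the lowest control (log2 fold change -1.51 ± 0.15, edgeR adjusted p = 8.91e-06). PDGFRA fell by 1.70, the collagen receptor DDR1 by 0.89 and the ephrin receptor EPHB6 by 2.33. EGFR rose by 0.50 and MET, the receptor of hepatocyte growth factor, by 0.64. Of 18 receptor tyrosine kinases tested 4 rose and 5 fell (22.2% and 27.8%, against 17.7% and 19.0% of all genes). HBEGF, a ligand of EGFR, had a log2 fold change of -0.70 and overlapping groups. Its call was lost when siNS replicate 2, siYES1 replicate 3 or siYES1 replicate 4 was left out.

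Immediate-early genes of the ERK cascade were among the called falls. EGR1, a transcription factor induced within minutes of growth factor signals, stood at 37.9, 32.8, 36 and 33 CPM with siNS and at 4.76, 9.29, 7.25 and 6.48 CPM with siYES1. The groups lay wide apart (log2 fold change -2.33 ± 0.17, edgeR adjusted p = 6.85e-07). FOS, its partner in that response, fell from 21, 17.3, 14.4 and 16 CPM to 4.12, 3.75, 4.18 and 4.12 CPM, without overlap (log2 fold change -2.08 ± 0.16, edgeR adjusted p = 1.12e-06). DUSP6, the phosphatase that ERK induces against itself, fell from 8.65, 12.1, 12.3 and 7.77 CPM to 4.17, 4.08, 1.69 and 3.54 CPM, also without overlap (log2 fold change -1.60 ± 0.27, edgeR adjusted p = 0.000562). SPRED3, another inhibitor of the cascade, fell by 1.70. Over the 26 tested genes of ERK feedback and output 8 fell and 4 rose, against 12 and 4 without siNS replicate 1, and the list median was -0.14.

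The promoter of EGR1 shows the element that the serum response factor reads at immediate-early genes. The RefSeq window of 250 bases before its start (GRCh38.p14, chr5:138465229-138465478, plus strand) is printed with the 2 matches to this element, the CArG box, in capitals. They begin 105 and 83 bases before the start.
EGR1 promoter: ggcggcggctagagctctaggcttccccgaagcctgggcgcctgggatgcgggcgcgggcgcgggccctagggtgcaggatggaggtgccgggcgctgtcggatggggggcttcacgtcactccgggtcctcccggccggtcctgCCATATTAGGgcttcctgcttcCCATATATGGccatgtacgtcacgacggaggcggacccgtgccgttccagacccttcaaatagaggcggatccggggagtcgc
The CArG box, which reads the same way on both strands, was found in 0.830% of the 6869 windows of tested coding genes that have 1 window each, in 1.09% of those of genes that rose and in 0.861% of those of genes that fell. A match is a description of the letters, and no binding was measured.

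The AP-1 and ATF family, to which FOS belongs, held 9 rises and 2 falls of 17 tested and a median of 0.38. With total counts as the scaling it held 7 rises and 3 falls and a median of 0.21. FOSL1, the FOS relative of invasive breast cancer cells, rose by 0.84 and MAFG by 0.75. ATF3 had a log2 fold change of 0.67 with overlapping groups, and its call was lost with total counts as the scaling. It was also lost when siNS replicate 4 or siYES1 replicate 1, 2 or 4 was left out. Of 31 tested NF-kB targets 7 rose and 8 fell (22.6% and 25.8%, against 17.7% and 19.0% of all genes). Several cytokines of the list were among the falls. IL6 stood at 11.9, 8.52, 7.11 and 6.16 CPM with siNS and at 2.46, 2.28, 3.07 and 2.95 CPM with siYES1. CSF3, the granulocyte growth factor, stood at 11.8, 2.9, 7.79 and 4.61 CPM and at 1.44, 0.707, 1.01 and 0.816 CPM. Neither pair of groups overlapped, siNS replicate 1 was the highest control of both, and the log2 fold changes were -1.64 ± 0.24 and -2.77 ± 0.42 (edgeR adjusted p = 0.000189 and 0.000258), or -1.44 and -2.37 without it. CSF2 fell by 1.67, IL11 by 1.32, IL1B by 1.28 and the regulator NFKBIZ by 0.82.

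TMEM173 (STING), the adaptor of cytosolic DNA sensing, stood at 10.9, 4.62, 5.78 and 6.27 CPM with siNS and at 1.5, 1.52, 1.59 and 0.408 CPM with siYES1. The groups did not overlap, with siNS replicate 1 highest and siYES1 replicate 4 lowest (log2 fold change -2.46 ± 0.39, edgeR adjusted p = 0.000337, and -2.17 without siNS replicate 1). Over 21 tested genes of DNA and RNA sensing 3 rose and 6 fell (14.3% and 28.6%, against 17.7% and 19.0% of all genes).

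Targets of YAP and TAZ had 8 rises and 5 falls of 24 tested, or 4 and 6 with total counts as the scaling. F3, tissue factor, rose by 1.17, and ANKRD1 fell by 0.90 with overlapping groups. CTGF had a log2 fold change of -0.96 with overlapping groups, and siNS replicate 1 stood at 93.4 CPM against 23.7 to 38.6 CPM in the other controls. Without that library the CTGF change was smaller, -0.42, and still called (edgeR adjusted p = 0.0164). Its call was lost with DESeq2, limma-voom, replicate number as a block, and when any siYES1 library was left out. In the TGF-beta and BMP list 8 rose and 10 fell of 37 (21.6% and 27.0%, against 17.7% and 19.0% of all genes). The matrix store LTBP2 fell by 1.79 and the inhibitor SMAD6 by 1.23. Of 38 tested Wnt pathway genes 14 fell and 3 rose, and the list median was -0.33. The ligand WNT7B fell by 1.65, the nuclear factor TCF7 by 1.79 and the inhibitor NKD2 by 1.81. In the Notch list 9 rose and 9 fell of 28. The receptor NOTCH3 fell by 1.57 and LFNG, which modifies the receptors, by 1.78, while the ligand JAG1 rose by 0.90 (0.71 without siNS replicate 1).

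In the actin cytoskeleton, of 28 tested actin and contractile genes 13 rose and 2 fell, and the list median was 0.20 (8 rises, 5 falls and a median of 0.02 with total counts as the scaling). At their median level of 31.1 CPM per kb this is near the band of 30 to 100 CPM per kb, in which 41.1% of all genes rose and the median was 0.18. Cofilin CFL2, which severs filaments, rose by 1.23 and gamma-actin ACTG1 by 0.73. RHOA, a small GTPase that acts on actin, rose by 0.90, RHOG by 1.03, the RHOA effector ROCK1 by 0.81 and the CDC42 effector PAK1 by 0.81, while ARHGDIB, which holds such GTPases in the cytosol, fell by 2.35. The caveolae genes CAV1 and CAV2 rose by 0.53 and 0.47, and the annexins ANXA1 and ANXA2 by 1.46 and 0.80.

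In the cell cycle group, PLK1, a kinase of mitotic entry, stood at 68.7, 38.4, 53.5 and 53.5 CPM with siNS and at 151, 159, 149.7 and 157 CPM with siYES1. Groups did not overlap, and siNS replicate 1 was the highest control (log2 fold change 1.53 ± 0.13, edgeR adjusted p = 3.19e-06, and 1.66 without it). Its promoter window (GRCh38.p14, chr16:23678639-23678888, plus strand) is printed because it holds a match, in capitals, to TTTGAA, the word of the cell cycle homology region through which mitotic genes are repressed outside mitosis, 29 bases before the start.
PLK1 promoter: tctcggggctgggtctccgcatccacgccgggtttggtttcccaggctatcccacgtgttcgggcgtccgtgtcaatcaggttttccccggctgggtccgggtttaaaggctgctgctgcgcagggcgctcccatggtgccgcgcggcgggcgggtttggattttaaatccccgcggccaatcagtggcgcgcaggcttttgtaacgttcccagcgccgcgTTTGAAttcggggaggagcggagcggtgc
TTTGAA on either strand was found in 7.67% of all 6869 windows, in 9.86% of the 1380 of genes that rose and in 6.26% of the 1278 of genes that fell.

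Regulators of the G1 phase changed in opposite directions. CCND1, cyclin D1, fell from 746, 694, 727 and 712 CPM to 385, 401, 434 and 434 CPM. CDK6, a kinase that cyclin D1 activates, rose from 48.7, 61, 49.1 and 51.5 CPM to 136, 152, 147 and 149.6 CPM. CDKN1A, the inhibitor p21, rose from 85.6, 126, 114 and 107 CPM to 217, 239.9, 204 and 228 CPM. For each of these genes the siRNA groups lay apart, with log2 fold changes of -0.80 ± 0.07, 1.47 ± 0.09 and 1.04 ± 0.11 (edgeR adjusted p = 1.85e-06, 1.59e-07 and 1.05e-05). CDK2 rose by 1.15 and CDKN1B, the inhibitor p27, by 0.52, and CCNE1, cyclin E1, fell by 0.77. CCNE2 had a log2 fold change of -1.01 with overlapping groups, and its call was lost without siNS replicate 1. It was also lost without siNS replicate 2, without any siYES1 library, with limma-voom and with replicate number as a block. Of the 16 tested genes of this list 8 rose and 4 fell, or 6 and 4 with total counts as the scaling.

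Beside CDKN1A, the tested p53 targets did not share a direction, with 7 rises and 6 falls of 27 (4 and 10 with total counts as the scaling). Their shares of 25.9% and 22.2% stand against 17.7% and 19.0% of all genes. BTG2 and GDF15 fell by 1.03 and 0.93. Of 18 tested members of the BCL2 family 8 rose and 3 fell, or 5 and 4 with total counts as the scaling. The survival gene BCL2 rose by 1.06 and the death activator HRK by 1.23, and BOK fell by 0.67. BBC3 (PUMA) had a log2 fold change of 0.80 with overlapping groups, and its call was lost with total counts as the scaling. Genes of the nuclear envelope had 9 rises and 2 falls of 18 tested, but 5 rises and 8 falls with total counts as the scaling. LMNA, the A-type lamin, rose by 0.63. LMNB1 rose by 1.15 and by 1.51 without siNS replicate 1, the highest control, and the lamin B receptor LBR fell by 0.76.

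Targets of NRF2, the factor of the response to oxidants, held 18 rises and 1 fall of 30 tested, and the list median was 0.32 (11 rises and 2 falls, median 0.15, with total counts as the scaling). HMOX1, which degrades heme, rose by 0.90, TXNRD1 and TXN of the thioredoxin system by 0.71 and 0.86, the cystine transporter SLC7A11 by 1.07 and OSGIN1 by 0.92. AKR1C2, of a set of near-identical reductases, fell by 0.67. NFE2L3, a relative of NRF2, fell by 0.88. FTL, the light chain of ferritin, stood at 1488, 2920.0, 2475 and 2393 CPM with siNS and at 7002, 7043, 6176 and 6364 CPM with siYES1. Its groups lay apart with siNS replicate 1 lowest (log2 fold change 1.52 ± 0.15, edgeR adjusted p = 9.19e-06, and 1.35 without that library). FTH1, the heavy chain, had a log2 fold change of 0.24 and was not called (edgeR adjusted p = 0.0937).

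Several metallothioneins, small proteins that bind zinc and copper, rose beside FTL. MT2A stood at 947, 649, 668 and 717 CPM with siNS and at 1840.0, 1938, 1624 and 1658 CPM with siYES1. MT1X stood at 29.3, 29.5, 32.7 and 31.9 CPM and at 90.8, 79.3, 78.3 and 76.5 CPM. No control reached the siYES1 libraries in either gene, and the log2 fold changes were 1.24 ± 0.11 and 1.40 ± 0.09 (edgeR adjusted p = 3.75e-06 and 2.7e-07). MT1E rose by 1.24 and SLC39A8, an importer of zinc and manganese, by 0.95. Metallothionein genes are similar to each other, so reads could be shared between them. Of 18 tested genes of iron and metallothioneins 10 rose and 2 fell, or 8 and 3 with total counts as the scaling.

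Their promoters are shown because metallothionein genes share the core that the metal-responsive factor MTF1 reads, TGCGCNC or TGCACNC on either strand, in capitals here. MT2A (chr16:56608334-56608583, plus strand) holds 7 matches and MT1X (chr16:56682220-56682469, plus strand) holds 4, both in GRCh38.p14.
MT2A promoter: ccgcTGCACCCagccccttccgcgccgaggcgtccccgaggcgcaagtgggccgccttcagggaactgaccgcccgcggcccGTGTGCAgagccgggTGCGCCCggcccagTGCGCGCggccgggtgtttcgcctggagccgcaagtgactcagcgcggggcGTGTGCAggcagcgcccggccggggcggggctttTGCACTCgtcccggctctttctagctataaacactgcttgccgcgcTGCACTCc
MT1X promoter: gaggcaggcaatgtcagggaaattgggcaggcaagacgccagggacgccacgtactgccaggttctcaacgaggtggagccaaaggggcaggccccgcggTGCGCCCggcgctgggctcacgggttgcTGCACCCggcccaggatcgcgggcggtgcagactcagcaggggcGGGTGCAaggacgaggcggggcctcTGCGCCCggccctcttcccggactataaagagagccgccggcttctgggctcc
At least 1 match was found in 35.1% of all 6869 windows, in 35.4% of those of genes that rose and in 33.3% of those of genes that fell.

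Lysosomal genes were counted by the place of their product. Of 28 tested genes of the lysosomal membrane and of mannose 6-phosphate sorting 15 rose and 4 fell, and the list median was 0.30. Of 47 tested genes of soluble hydrolases 9 rose and 12 fell (19.15% and 25.53%), and the list median was -0.03. Over all genes 17.7% rose and 19.0% fell. With total counts as the scaling the first list had 9 rises and 5 falls and the second 6 and 18. LAMP1, a main protein of the lysosomal membrane, stood at 181, 128, 134 and 151 CPM with siNS and at 419, 393, 395 and 427 CPM with siYES1. The groups lay far apart (log2 fold change 1.46 ± 0.10, edgeR adjusted p = 4.94e-07). LAMP2 rose by 0.91, TFE3, a transcription factor of lysosomal genes, by 0.82, and M6PR, a sorting receptor, by 0.61. GNPTAB, which makes the mannose 6-phosphate tag of hydrolases, fell from 69.1, 59.7, 68.8 and 61.7 CPM to 18.7, 14.8, 18.7 and 17.4 CPM, without overlap (log2 fold change -1.90 ± 0.11, edgeR adjusted p = 1.11e-07). SORT1, a sorting receptor that needs no such tag, fell by 1.34. Among hydrolases FUCA1 and ACP2 fell by 1.56 and 1.20, and CTSB and PPT1 rose by 0.81 and 0.79.

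The LAMP1 window (GRCh38.p14, chr13:113296989-113297238, plus strand) is printed with its match to TCACGTGA in capitals, 29 bases before the start. This word is the core of the CLEAR element that TFEB and TFE3 read at lysosomal genes.
LAMP1 promoter: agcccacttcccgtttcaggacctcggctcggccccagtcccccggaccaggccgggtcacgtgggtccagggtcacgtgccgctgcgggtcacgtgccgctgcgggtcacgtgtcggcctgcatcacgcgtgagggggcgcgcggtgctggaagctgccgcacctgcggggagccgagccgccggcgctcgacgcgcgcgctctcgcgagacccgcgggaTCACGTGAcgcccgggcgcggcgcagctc
TCACGTGA was found in 1.85% of all 6869 windows, in 2.1% of the windows of genes that rose and in 0.783% of those of genes that fell.

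Among 34 tested autophagy genes 10 rose and 2 fell, or 7 and 5 with total counts as the scaling. SQSTM1, the receptor p62, rose by 1.08 and WIPI1, which acts on forming autophagosomes, by 0.89. Of 21 tested subunits of the vacuolar ATPase 9 rose and 4 fell (6 and 4 with total counts as the scaling), with ATP6V1B2 higher by 0.77. Beside GPAT3, genes of lipid storage moved both ways. PLIN2, a lipid droplet coat protein, stood at 3.9, 3.14, 2.34 and 3.11 CPM with siNS and at 0.374, 1.69, 0.9 and 0.952 CPM with siYES1, without overlap (log2 fold change -1.67 ± 0.41, edgeR adjusted p = 0.00606). Its relative PLIN4 fell by 2.93 and DGAT2, of the last step of triglyceride synthesis, by 0.60. Over 23 tested genes of glycerolipid synthesis 8 rose and 6 fell, and 6 rose and 8 fell with total counts as the scaling.

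Vesicle coat genes rose more often than they fell. Of 27 tested genes of COP and SEC coats, which carry vesicles between endoplasmic reticulum and Golgi, 14 rose and 1 fell, and the list median was 0.28. COPB1 rose by 0.71 and SEC31A by 0.60, and SEC61A2, of the translocon, fell by 0.83. Of 37 tested aminoacyl-tRNA synthetases 13 rose and 2 fell (20 and 3 without siNS replicate 1), with AARS higher by 0.85 and GARS by 0.69. With total counts as the scaling 10 synthetases rose and 6 fell. Of 60 tested translation factors 18 rose and 3 fell, with EIF1 higher by 0.77 (0.60 without siNS replicate 1). With total counts as the scaling 10 of them rose and 8 fell, and the list median of 0.11 became -0.06.

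Of 46 tested proteasome genes 15 rose and 3 fell, but 2 rose and 7 fell with total counts as the scaling, where the median of 0.09 became -0.08. Their share of rises, 32.6% at a median level of 18.1 CPM per kb, was near the 31.4% of all genes from 10 to 30 CPM per kb. PSMB3, a subunit of the proteasome core, rose by 0.52. Among 28 tested nucleoporins 9 rose and 1 fell, or 22 and 1 when siNS replicate 1 was left out. With total counts as the scaling 3 nucleoporins rose and 1 fell. NUP205 of the inner ring rose by 0.45, a call lost with total counts as the scaling. Of 47 tested splicing factors of the SR and hnRNP families 11 rose and 3 fell, or 18 and 4 without siNS replicate 1, but 5 rose and 9 fell with total counts as the scaling, with PTBP3 higher by 0.86 and HNRNPH3 by 0.56. The nuclear genes of the mitochondrial ribosome had 11 rises and 11 falls of 78, and those of respiratory complex I had 6 rises and 3 falls of 45 (4 and 19, and 0 and 8, with total counts as the scaling), shares below the background of all genes.

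Long noncoding RNAs fell more often than they rose. Of 1302 tested, 172 fell (13.2%) and 46 rose (3.53%), against 20.6% and 20.1% of 12320 coding genes. In the band of 1 to 3 CPM per kb 17.6% of long noncoding and 28.1% of coding genes fell, and 2.71% and 7.93% rose. Their summed share of the counts was 0.809% to 0.870% with siNS and 0.687% to 0.730% with siYES1, without overlap (two-sided exact permutation p = 0.0286, the smallest possible). NEAT1, the RNA scaffold of nuclear paraspeckles, rose from 51.2, 36.6, 41 and 41.9 CPM to 84.3, 104, 103 and 102 CPM. The groups lay apart, and siYES1 replicate 1 was the lowest of its group (log2 fold change 1.20 ± 0.11, edgeR adjusted p = 4.47e-06). LINC02056 fell from 38.6, 43.7, 50.9 and 45.1 CPM to 7.49, 8.7, 6.19 and 7.79 CPM, also without overlap (log2 fold change -2.56 ± 0.14, edgeR adjusted p = 6.24e-08).

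By the rule for long noncoding genes at 1 CPM or more, the largest falls were in AC004817.3 (-5.30 on the log2 scale), LINC01204 (-3.17), Z82186.1 (-3.09), AC091435.2 (-3.05) and LINC00920 (-2.87). The largest rises were in LINC00520 (3.02), AL138828.1 (2.06), AC011586.2 (1.85), AC078850.1 (1.76) and AC012181.2 (1.76). AC091435.2 and AL138828.1 are annotated as antisense and AC012181.2 as sense to another gene, so without a stated strand setting their counts cannot be told from those of the overlapping gene.

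The response was set against that of MDA-MB-231 by testing the interaction of line with siRNA in 1 fit of the 16 libraries. Of 16299 genes tested 3953 differed between the lines (24.3%), with 2511 higher in SUM159PT (15.4%) and 1442 lower (8.85%). For YES1 the difference was -0.66, the deeper fall being in SUM159PT. Genes that fell in SUM159PT but hardly in MDA-MB-231 included IGFBP4, a binding protein of insulin-like growth factors, with log2 fold changes of -2.23 and 0.06 (edgeR adjusted p of the difference 6.85e-11). PLEKHA6 changed by -2.93 and 0.45, and GGT5, which cleaves leukotriene C4, by -2.78 and -0.03. NFE2L3 fell by 0.88 in SUM159PT and rose by 1.60 in MDA-MB-231. LMTK3, CITED4, WDR66 and ASB9 fell in both lines and by 3.33, 2.28, 2.26 and 2.26 more in SUM159PT.

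Among genes called in SUM159PT and at 5 CPM or more in both lines, the largest difference in the other direction was in ABI3BP. This gene of a matrix protein rose by 0.63 in SUM159PT and fell by 3.00 in MDA-MB-231 (edgeR adjusted p of the difference 4.24e-10). WIPI1, CPA4, CCBE1 and the noncoding genes AC091182.2 and LINC01605 likewise rose in SUM159PT and fell in MDA-MB-231, with differences of 2.63, 2.52, 2.34, 2.64 and 2.46. PSG4 rose by 1.86 against a log2 fold change of -0.41. KLF2 rose in both lines and more in SUM159PT (difference 1.78, edgeR adjusted p 2.6e-05). EGR1 fell by 1.97 more and KDR by 2.78 more in SUM159PT. For PLK1, NEAT1 and COL1A1 the differences were 0.02, -0.09 and -0.14 with standard errors of 0.16, 0.16 and 0.12, and did not pass the test.

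Gene groups also differed between the lines, where higher means a more positive log2 fold change in SUM159PT. Of 27 genes of COP and SEC coats edgeR called 17 higher in SUM159PT and 0 lower (0 also by DESeq2 and at an unadjusted p under 0.05), where MDA-MB-231 had 4 rises and 11 falls, against 24.9% rises and 27.5% falls (52.4% called) over all its genes. Of 30 NRF2 targets edgeR called 16 higher and 0 lower (1 lower by DESeq2 and 0 at an unadjusted edgeR p under 0.05), and of 47 soluble hydrolases 21 were higher and 2 lower. Of 443 ZNF genes 76 were lower in SUM159PT and 10 higher, where MDA-MB-231 had 188 rises and 37 falls of 435. These counts stand against 15.4% higher and 8.85% lower over all genes.

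**Figure D5:**
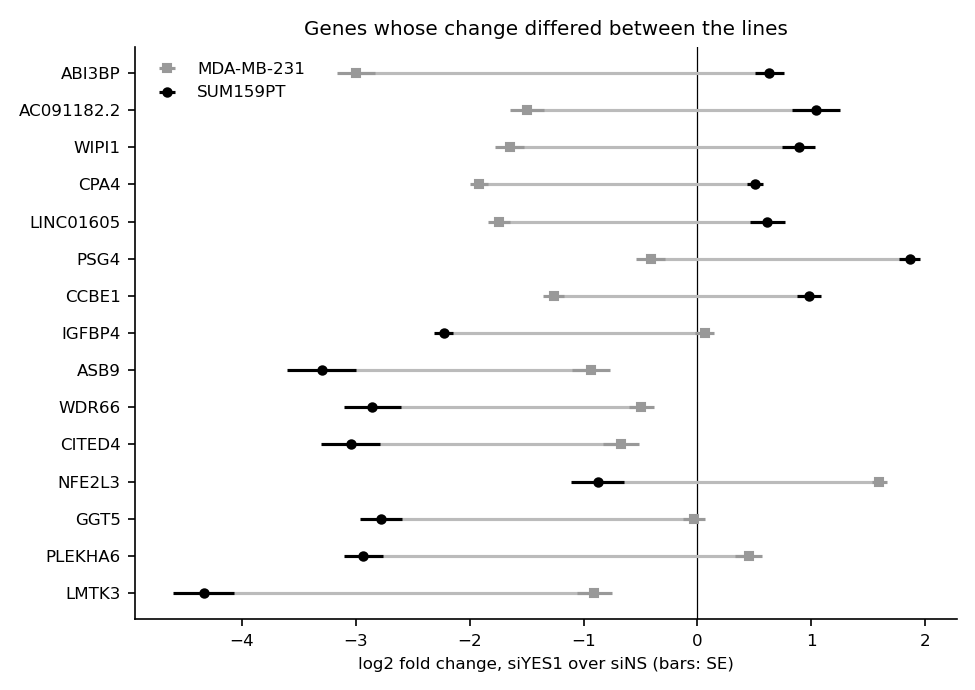
Log2 fold change (siYES1 over siNS) with its standard error in SUM159PT (black circles) and MDA-MB-231 (grey squares) for 15 genes among those with the largest difference between lines at 5 CPM or more in both, 8 lower and 7 higher in SUM159PT. ABI3BP at the top rose in SUM159PT and fell in MDA-MB-231, and LMTK3 at the bottom fell in both and deeper in SUM159PT.

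Leaving out siNS replicate 1 raised the number of called genes. Without it 6237 of 14693 genes were called (42.4%), with 3083 rises (21.0%) and 3154 falls (21.5%). Of the 5321 genes called with all 8 libraries 5104 (95.92%) were called in the same direction without it, 217 were not called and 0 changed direction, and 1105 genes were called only without it. Fold changes of KLF2, FTL, PAG1 and CBLB were smaller without it. LAMP1, PLK1, LMNB1, SLC7A11 and MT2A had larger fold changes without it (1.56, 1.66, 1.51, 1.26 and 1.37).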

How the data were processed

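Polyadenylated RNA was sequenced, per the labels' protocols. Per the submitters' processing notes, HISAT2 2.0.5 aligned the reads to hg38 and featureCounts 1.5.0-p3 counted them. For the annotation release and strand setting, nothing was given in the sources used here. The authors deposited raw integer counts per gene, with 1 table per line. All 58735 gene IDs matched GENCODE 29, which gave symbols, classes, exon lengths and GRCh38 coordinates, and 31264 had 0 counts in all 8 SUM159PT libraries.

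The 8 libraries were fitted with the quasi-likelihood F test of edgeR 4.0.16 under R 4.3.3, after TMM scaling and filterByExpr. Calls were made under a Benjamini-Hochberg adjusted p of 0.05 over all genes tested. Counts of list members cover tested members, and a low gene can pass the filter through the group where it is high. CPM are counts scaled for library size. Lines were compared through the line by siRNA interaction. Alternatives were RLE scaling, total counts, other filters, DESeq2 1.42.0, limma-voom (limma 3.58.1), glmTreat, a joint fit, replicate number as a block and leaving out each library. The fit was tested on simulated counts with 50 changed genes per fold. It recovered 0% of changes of 1.25-fold, 34% of 1.5-fold, 84% of 2-fold and 94% of 4-fold. The simulation gave all genes 1 common spread and changed far fewer genes than were called here, so these shares need not hold for the real data. A gene that was not called can still have changed. Depth was 15680459 to 23451253 counts, and counting error is smallest for genes with many counts.

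The comparison and the 65 gene lists were chosen with earlier results of these data known. Genes were named by a rule. It took YES1, the 15 risen and 15 fallen coding genes of largest log2 fold change at 5 CPM or more, without overlap of the groups and called also without siNS replicate 1, 5 long noncoding genes of each direction at 1 CPM or more, up to 4 called members of each list at 2 CPM or more, the markers, and 8 genes of each sign of the line difference. Which of these are discussed, and some further list members, was decided after their values were seen, and a few items are not reported here. Promoter windows are from RefSeq (GRCh38.p14).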

Additional observations from a re-analysis of the deposited data

Results flagged for a closer look

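In groups of 4 libraries, 4 of 76 groups examined had a library far from the other 3, where chance gives about 5% of groups. Total counts of siYES1 replicate 4 were 23451253, above the other siYES1 libraries. FOS stood at 3.75 CPM in siYES1 replicate 2, TMEM173 at 0.408 CPM in siYES1 replicate 4 and NEAT1 at 84.3 CPM in siYES1 replicate 1. Each of these 3 genes was called in the same direction under every setting that was tried.

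By the edgeR interaction test, the change with siYES1 differed between the lines for YES1 and for the genes listed here. These are among those of largest difference that were called in SUM159PT and stood at 5 CPM or more in both lines. Some genes that were lower than this in MDA-MB-231 differed by more, such as MGP by -4.81. As SUM159PT minus MDA-MB-231 on the log2 scale, the difference was -3.33 for LMTK3, -3.28 for PLEKHA6, -2.65 for GGT5 and -2.38 for NFE2L3. It was -2.28 for CITED4, -2.26 for WDR66, -2.26 for ASB9, -2.20 for IGFBP4 and -0.66 for YES1. On the higher side it was 3.73 for ABI3BP, 2.64 for AC091182.2 and 2.63 for WIPI1. CPA4 differed by 2.52, LINC01605 by 2.46, PSG4 by 2.37 and CCBE1 by 2.34.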

How the results depend on the processing

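With total counts as the scaling 1394 genes rose and 4173 fell, against 2566 and 2755. The called genes numbered 4323 to 6237 when 1 library was left out, and 5789 with DESeq2, 5443 with limma-voom, 6625 in the joint fit and 5614 without a filter. At 2-fold the counts were 1208 to 1856 over all settings, and glmTreat at 1.5-fold called 1137. With the replicate block 2433 rose and 2528 fell. Deviations of same-numbered libraries correlated at -0.068, 0.0877, -0.038 and 0.00133, so the numbers pair no libraries. The line difference had 3495 to 4495 genes over its settings, 3545 with the replicate block. The YES1 log2 fold change was -3.12 to -2.90. The sign of the YES1 change was the same under each setting. The balance of rises and falls reversed in several lists with total counts as the scaling. For proteasome genes it went from 15 and 3 to 2 and 7, and for nuclear envelope genes from 9 and 2 to 5 and 8. Of 234 called genes considered for the text, 225 kept the call under all 16 settings. HBEGF, CTGF, ATF3, CCNE2, HOXC8, NUP210, NUP205, BBC3 and TP53I3 lost it under at least 1. Of the list counts 180 moved by over 1.5 times and 1770 did not. Depth limits genes under 1 CPM per kb, where few counts stand behind a value.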
